A study of Mus musculus with 36 samples.

Results

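Cytotoxic lymphocytes kill through secretory granules and through a small set of surface and secreted molecules, and 10 genes of that machinery were followed here: Gzma, Gzmb, Gzmc, Gzmk, Prf1, Nkg7, Ctsw, Klrd1, Fasl and Ifng. They were found by gene name in the deposited expression tables, where each name matched 1 row, and they make up 10 of 55573 gene models that carry an Ensembl identifier. The study sequenced RNA from mice labelled wild type. Cells labelled tumor-associated macrophages came from B16-F10 tumours, a transplantable melanoma, and from MC38 tumours, a transplantable colon carcinoma. Monocytes and granulocyte-macrophage progenitors (GMPs) came from bone marrow, and their cell type label reads bone marrow cells.

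In each of the 4 populations 3 libraries came from mice given OMV-SIRP-G, 3 from mice given OMV-SIRP and 3 from mice given PBS, the saline vehicle, and this gives 36 libraries in all. OMV stands for outer membrane vesicle, a particle shed by Gram-negative bacteria; the labels do not spell out the SIRP and G parts, and they give no dose, age or time. The design text speaks of pooled samples and does not say whether the replicates of a group are different animals. The p-values below therefore measure only the spread between these libraries, which may be technical.

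Granzymes are serine proteases that are stored in lytic granules bound to the proteoglycan serglycin and are delivered into a target cell through pores made by perforin, the product of Prf1. Nkg7 encodes a granule membrane protein needed for efficient degranulation, and Ctsw a papain-like cathepsin of cytotoxic lymphocytes. Klrd1 encodes CD94, the partner chain of the NKG2 receptors of natural killer (NK) cells and some CD8 T cells, Fasl the ligand of the death receptor Fas, and Ifng interferon gamma, the cytokine by which these cells activate macrophages. In tumours these transcripts are known mainly from NK cells and CD8 T cells, and macrophages are not their usual source.

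All 10 genes are annotated as protein coding in the deposited tables, with coordinates of mouse build GRCm38. Gzma (ENSMUSG00000023132) spans chr13:113093825-113100981 and Gzmk (ENSMUSG00000042385) chr13:113171608-113225908, both on the minus strand of the same cluster. Gzmb (ENSMUSG00000015437) spans chr14:56258838-56262260 and Gzmc (ENSMUSG00000079186) chr14:56231441-56234656, again neighbours on the minus strand. Reads from such related genes can be split between copies, so the granzyme values carry that uncertainty. Prf1 (ENSMUSG00000037202) lies at chr10:61297833-61304680 and Ifng (ENSMUSG00000055170) at chr10:118441046-118445892, both on the plus strand. Nkg7 (ENSMUSG00000004612) lies at chr7:43437073-43438249 on the plus strand and Klrd1 (ENSMUSG00000030165) at chr6:129591782-129598775 on the plus strand. Ctsw (ENSMUSG00000024910) occupies chr19:5465043-5468507 and Fasl (ENSMUSG00000000817) chr1:161780689-161788495, both on the minus strand. Other gene models overlap 3 of them. Esm1 overlaps Gzmk by 8440 bases and Fibp overlaps Ctsw by 9 bases, both on the opposite strand, and Gm49751 overlaps Ifng by 2722 bases on the same strand. These overlaps are of whole gene spans, and which of the shared bases were counted was not examined. Whether strand was used in counting is not given in the sources used here. Without it, reads within counted bases shared by an opposite-strand pair cannot be told apart. Strand would not separate such reads of Gm49751 and Ifng. Gm49751 itself stayed at or below 0.595 FPKM in B16 libraries and 2.66 FPKM in MC38 libraries.

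Promoter sequences from RefSeq (GRCm38.p6), each 300 bases long with 250 bases before the start and 50 after it, were found for 8 of the 10 genes; Klrd1 and Ctsw had no entry. The 4 below are shown because Gzma and Gzmb passed the test in both tumours under both treatments, Nkg7 was the member also abundant in marrow progenitors, and the Ifng window held none of the motifs searched. Each is written 5′ to 3′ on the gene's own strand, and capitals mark a motif match on either strand.
Gzma, chr13:113100932-113101231, minus strand: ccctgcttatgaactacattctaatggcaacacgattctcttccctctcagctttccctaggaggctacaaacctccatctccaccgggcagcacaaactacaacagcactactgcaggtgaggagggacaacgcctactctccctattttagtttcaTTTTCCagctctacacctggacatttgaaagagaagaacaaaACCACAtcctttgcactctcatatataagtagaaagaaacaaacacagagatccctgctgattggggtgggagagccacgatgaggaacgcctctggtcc
Gzmb, chr14:56262285-56262584, minus strand: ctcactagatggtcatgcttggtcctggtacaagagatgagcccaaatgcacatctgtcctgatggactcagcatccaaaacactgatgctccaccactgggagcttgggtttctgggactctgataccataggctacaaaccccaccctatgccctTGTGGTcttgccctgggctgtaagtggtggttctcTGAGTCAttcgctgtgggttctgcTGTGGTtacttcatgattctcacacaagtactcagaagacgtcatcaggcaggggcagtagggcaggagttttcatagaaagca
Nkg7, chr7:43436888-43437187, plus strand: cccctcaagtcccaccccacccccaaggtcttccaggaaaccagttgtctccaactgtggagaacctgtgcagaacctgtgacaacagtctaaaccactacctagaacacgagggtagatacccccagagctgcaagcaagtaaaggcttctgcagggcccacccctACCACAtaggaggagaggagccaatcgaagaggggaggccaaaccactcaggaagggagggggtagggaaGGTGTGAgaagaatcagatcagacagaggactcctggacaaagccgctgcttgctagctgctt
Ifng, chr10:118440796-118441095, plus strand: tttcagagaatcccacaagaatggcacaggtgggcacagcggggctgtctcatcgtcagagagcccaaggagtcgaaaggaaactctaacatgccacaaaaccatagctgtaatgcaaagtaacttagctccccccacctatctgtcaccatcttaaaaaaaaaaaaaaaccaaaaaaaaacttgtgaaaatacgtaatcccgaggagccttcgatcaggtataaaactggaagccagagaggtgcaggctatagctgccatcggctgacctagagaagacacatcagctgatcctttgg

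The motifs searched on both strands were the T-box element GGTGTGA, the RUNX site TGTGGT, the AP-1 site TGANTCA and the NFAT site GGAAAA, which bind families of factors known to act in cytotoxic lymphocytes. TGTGGT was found in 5 of the 8 windows (Gzma, Gzmb, Gzmc, Prf1 and Nkg7), against 16.8% of all 32851 windows of the same length. The Gzmb window held it at 93 and at 34 bases before the start, and Gzmc held it at 2 places as well. GGTGTGA was found in Gzmk and Nkg7 (2 of 8, against 3.98% of all windows), TGANTCA in Gzmb alone (1 of 8, against 7.81%) and GGAAAA in Gzma and Fasl (2 of 8, against 23.4%). These letters describe the windows and say nothing about which factor was bound.

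Library depth was even, at 13036567 to 19822660 recovered reads assigned to genes. Levels are given in FPKM, fragments scaled to gene length and to a factor for each library. That factor matched a median-of-ratios scaling within each table, not the total reads. Log2 changes are differences of log2(FPKM + 1), a scale that understates changes of low genes. Within a group, replicates correlated across genes at 0.929 to 0.976 in B16, 0.980 to 0.989 in GMPs, 0.925 to 0.988 in monocytes and 0.810 to 0.950 in MC38. In MC38, OMV-SIRP replicate 2 (0.817 to 0.845) and PBS replicate 3 (0.810 to 0.815) stood apart from their groups, and in monocytes PBS replicate 2 did (0.925 to 0.928). The macrophage label was checked with 8 macrophage markers. In MC38 their summed level was 1078 to 1094 FPKM with OMV-SIRP-G and 1184 to 1776 FPKM with OMV-SIRP, but 53.6 to 117 FPKM in the PBS libraries, where Mertk was at 0 in all 3. Neutrophil markers ran the other way in MC38, at 13.5 to 24.7 FPKM with OMV-SIRP-G, 27.9 to 117 FPKM with OMV-SIRP and 248 to 560.0 FPKM with PBS. The 3 MC38 libraries labelled PBS macrophages thus carried little of the macrophage signature of the treated ones, and every MC38 comparison with PBS below rests on them. In B16 with PBS the macrophage markers summed to 3684 to 4091 FPKM. Beside them, 5 melanocytic markers summed to 2800 to 3053 FPKM, so those libraries also held melanocytic RNA. In GMPs with PBS, 8 progenitor markers summed to 5405 to 6737 FPKM and 7 neutrophil markers to 27268 to 38758 FPKM.

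All 10 genes were detected in both tumours, and all 10 passed the filter of at least 1 FPKM in at least 3 of the 9 libraries there. By mean over the 9 B16 libraries, Nkg7 was highest at 67.6 FPKM, followed by Gzmb at 37.0, Gzma at 21.4, Prf1 at 16.5, Klrd1 at 13.8, Ctsw at 10.3, Gzmc at 9.48, Gzmk at 5.72, Ifng at 3.40 and Fasl at 0.995 FPKM. In MC38 the order by mean FPKM began with Gzma at 198, Gzmc at 133, Gzmb at 130.2 and Nkg7 at 104, and went on through Prf1 at 43.0, Klrd1 at 38.7, Ctsw at 24.9, Ifng at 16.3, Gzmk at 6.57 and Fasl at 5.34. These means pool 3 treatments, and the order differed between groups. With OMV-SIRP-G in MC38 it began with Gzma at 360.1 FPKM, Gzmb at 215 and Gzmc at 206, and with PBS with Nkg7 at 51.0 FPKM, Klrd1 at 33.2, Gzmc at 32.5 and Gzmb at 31.1, where Gzma averaged 10.7 FPKM. Levels of the 2 tumours come from tables that were scaled separately, so they are set side by side and were not tested against each other.

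In B16 tumours both treatments had less of the granule transcripts than PBS. The summed level of the 10 genes was 104, 118 and 107 FPKM with OMV-SIRP-G, 112, 109 and 128 FPKM with OMV-SIRP, and 379, 313 and 306 FPKM with PBS. Both treated groups lay wholly below PBS. Of the 10 genes, 7 were lower and 0 higher with OMV-SIRP-G, and 5 were lower and 0 higher with OMV-SIRP, at an adjusted p under 0.05 in limma. Among all 12542 genes tested in B16, the share called lower was 7.28% with OMV-SIRP-G and 0.566% with OMV-SIRP, and the share called higher 7.83% and 0.885%. The groups did not overlap for 8 of 10 members in each comparison with PBS, always lower, against 18.6% of all genes with OMV-SIRP-G and 8.75% with OMV-SIRP. The members' median log2 change was -1.43 with OMV-SIRP-G and -1.52 with OMV-SIRP, beside medians of -0.03 and -0.01 over all genes tested.

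Among the granzymes of B16, Gzma, a tryptase, stood at 6.02, 10.4 and 4.41 FPKM with OMV-SIRP-G, at 9.06, 7.15 and 7.86 FPKM with OMV-SIRP, and at 61.4, 46.4 and 39.5 FPKM with PBS. No treated library came near the lowest PBS library. The mean was 7.07-fold lower with OMV-SIRP-G (log2 change -2.70 ± 0.26 SE, adjusted p = 0.000108) and 6.12-fold lower with OMV-SIRP (log2 change -2.46 ± 0.26, adjusted p = 0.00117). Gzmb, the granzyme that cleaves after aspartate and activates caspases, had 25.3, 24.1 and 23.2 FPKM with OMV-SIRP-G, 17.6, 24.5 and 23.1 FPKM with OMV-SIRP, and 60.4, 62.7 and 72.2 FPKM with PBS. Its 6 treated libraries formed a narrow band, 2.69-fold lower in mean with OMV-SIRP-G (log2 change -1.39 ± 0.14, adjusted p = 0.000136) and 2.99-fold lower with OMV-SIRP (log2 change -1.55 ± 0.14, adjusted p = 0.000444).

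Gzmc, a rodent granzyme of the same cluster as Gzmb, had 3.16, 2.39 and 0 FPKM with OMV-SIRP-G, 6.42, 4.93 and 6.44 FPKM with OMV-SIRP, and 23.0, 20.4 and 18.6 FPKM with PBS in B16. The 3 groups did not overlap, and the zero was a library without a single read, where 3 reads would have given at most 0.248 FPKM. The fall with OMV-SIRP-G passed the test (log2 change -3.16 ± 0.44, adjusted p = 0.00128), and the difference with OMV-SIRP did not (-1.65 ± 0.44, adjusted p = 0.155). Leaving out OMV-SIRP-G replicate 3, the library at 0, brought Gzmc past the threshold in the OMV-SIRP comparison too (limma, adjusted p = 0.00187), and gave -2.52 with OMV-SIRP-G (adjusted p = 0.000151). Gzmk, a tryptase next to Gzma in the genome, had 6.44, 2.05 and 3.60 FPKM with OMV-SIRP-G, 1.91, 7.0 and 4.89 FPKM with OMV-SIRP, and 10.7, 7.73 and 7.12 FPKM with PBS. Its PBS libraries were the highest 3 of 9, and neither difference passed the test (adjusted p = 0.13 and 0.538). The antisense Esm1 had no read with OMV-SIRP-G, 1.21 to 1.83 FPKM with OMV-SIRP and 0.141 to 0.521 FPKM with PBS. Whether any of the Gzmk reads belong to Esm1 was not tested.

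**Figure D1:**
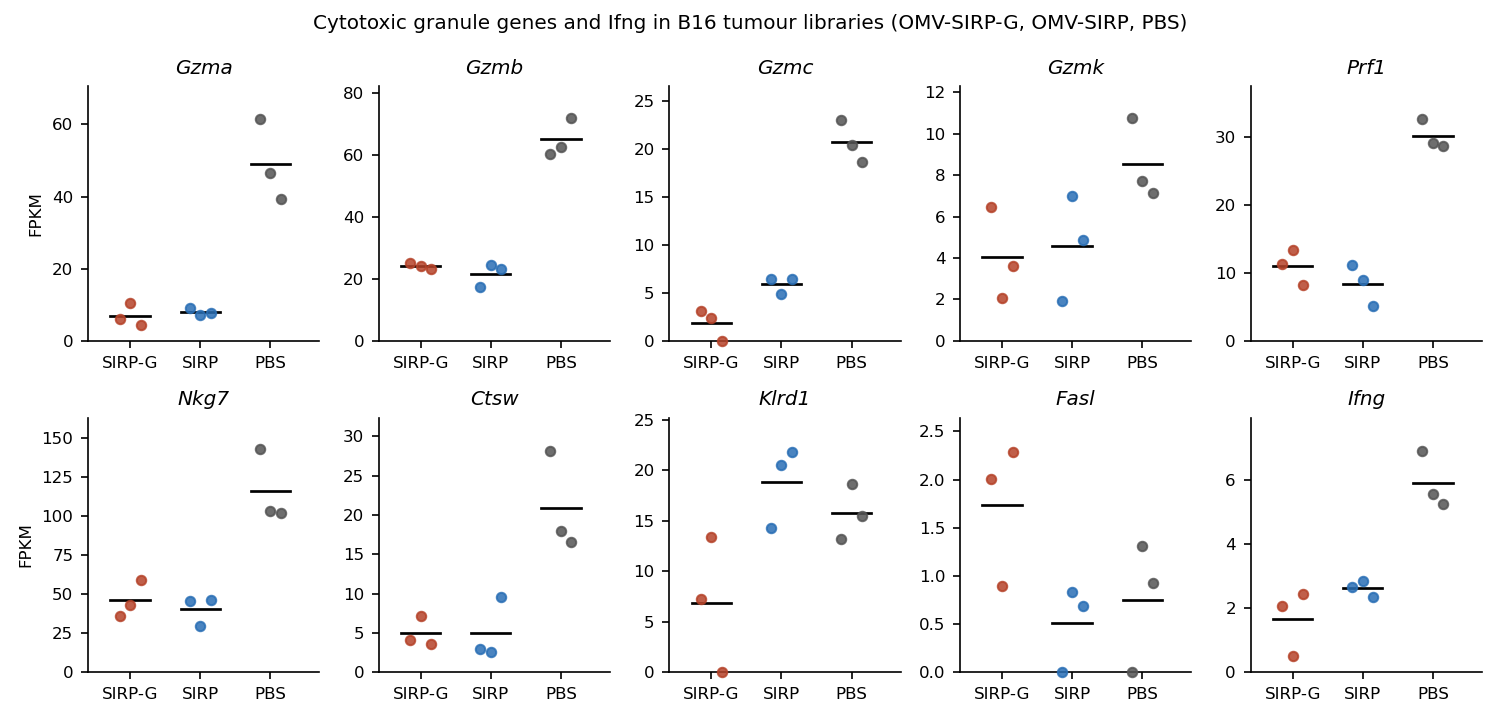
FPKM of each of the 10 genes in every B16 library (points, y axis), with treatments OMV-SIRP-G, OMV-SIRP and PBS from left to right on the x axis and bars at the group mean. For 8 genes the 3 PBS points lie above all points of both treatments, and Klrd1 and Fasl show overlapping groups.

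Prf1, whose product perforin makes the pore for granzyme entry, had 11.3, 13.5 and 8.20 FPKM with OMV-SIRP-G, 11.1, 8.98 and 5.09 FPKM with OMV-SIRP, and 32.7, 29.1 and 28.7 FPKM with PBS in B16. It was 2.75-fold lower in mean with OMV-SIRP-G (log2 change -1.40 ± 0.25, adjusted p = 0.00407) and 3.60-fold lower with OMV-SIRP (-1.79 ± 0.25, adjusted p = 0.00555). Nkg7, the granule membrane protein, had 36.2, 43.2 and 59.4 FPKM with OMV-SIRP-G, 45.6, 29.9 and 46.6 FPKM with OMV-SIRP, and 143, 103 and 102 FPKM with PBS. The highest treated library stayed well under the lowest PBS library, and both falls passed the test (log2 change -1.32 ± 0.22, adjusted p = 0.00314 with OMV-SIRP-G; -1.50 ± 0.22, adjusted p = 0.00823 with OMV-SIRP). Ctsw, the cathepsin, had 4.18, 7.16 and 3.58 FPKM with OMV-SIRP-G, 3.0, 2.58 and 9.55 FPKM with OMV-SIRP, and 28.2, 18 and 16.6 FPKM with PBS. Its fall passed with OMV-SIRP-G (-1.88 ± 0.40, adjusted p = 0.0121) and narrowly with OMV-SIRP (-2.0 ± 0.40, adjusted p = 0.044). The OMV-SIRP call for Ctsw held in 3 of 15 alternatives and was lost when any library other than OMV-SIRP replicate 3 was left out, with adjusted p up to 0.187.

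The 3 members outside the granule content differed in B16. Ifng had 2.08, 0.499 and 2.44 FPKM with OMV-SIRP-G, 2.66, 2.85 and 2.34 FPKM with OMV-SIRP, and 6.90, 5.57 and 5.26 FPKM with PBS, so both treated groups lay below PBS. The fall passed with OMV-SIRP-G (-1.45 ± 0.30, adjusted p = 0.0084), except with limma voom on reads (adjusted p = 0.0552), and the difference with OMV-SIRP did not pass (-0.93 ± 0.30, adjusted p = 0.253). Leaving out OMV-SIRP-G replicate 2 brought Ifng past the threshold in the OMV-SIRP comparison, at an adjusted p of 0.0481. Klrd1 had 7.29, 13.4 and 0 FPKM with OMV-SIRP-G, 14.3, 20.5 and 21.9 FPKM with OMV-SIRP, and 13.2, 18.6 and 15.4 FPKM with PBS. The OMV-SIRP and PBS groups overlapped for Klrd1 (log2 change 0.24 with a 95% interval of -1.71 to 2.19), and the wide spread with OMV-SIRP-G came with the library at 0. Fasl was low, at 2.0, 0.901 and 2.29 FPKM with OMV-SIRP-G, 0, 0.836 and 0.686 FPKM with OMV-SIRP, and 0, 1.31 and 0.929 FPKM with PBS. Neither Klrd1 nor Fasl passed the test in any B16 comparison.

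In MC38 tumours every member that passed the test was higher than with PBS. The summed level of the 10 genes was 1195, 1162 and 1091 FPKM with OMV-SIRP-G, 611, 1249 and 405 FPKM with OMV-SIRP, and 123, 174 and 298 FPKM with PBS. Of the 10 genes, 7 were higher and 0 lower with OMV-SIRP-G, and 4 were higher and 0 lower with OMV-SIRP. Among all 14089 genes tested in MC38, the share called higher was 13.1% with OMV-SIRP-G and 7.4% with OMV-SIRP, and the share called lower 6.86% and 3.49%. The groups did not overlap, with the treated group higher, for 9 of 10 members with OMV-SIRP-G (25.5% of all genes) and for 5 of 10 with OMV-SIRP (15.5% of all genes). The members' median log2 change was 2.07 with OMV-SIRP-G and 1.39 with OMV-SIRP, beside 0.07 and 0.03 over all genes.

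Scaling by total reads in place of the deposited scaling moved the median of all genes in MC38 to -0.08 with OMV-SIRP-G and to -0.27 with OMV-SIRP. It turned the calls over all genes into 1550 higher and 1424 lower with OMV-SIRP-G, against 1843 and 966, and into 697 higher and 1631 lower with OMV-SIRP, against 1042 and 492. The members still had medians of 1.89 and 1.02 under it, with 6 and 3 called, all higher. Relative to PBS, the sign of Ifng (-0.33) and Fasl (-0.26) with OMV-SIRP flipped under that scaling.

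Among the granzymes of MC38, Gzma showed the widest range, at 390.1, 339 and 351 FPKM with OMV-SIRP-G, 155, 475 and 41.2 FPKM with OMV-SIRP, and 19.2, 13 and 0 FPKM with PBS. All treated libraries were above all PBS libraries, and the OMV-SIRP libraries were spread widely. The mean was 33.6-fold higher with OMV-SIRP-G (log2 change 5.78 ± 1.12, adjusted p = 0.00829) and 20.9-fold higher with OMV-SIRP (4.48 ± 1.12, adjusted p = 0.0357). Without OMV-SIRP replicate 2, the library at 475 FPKM, the OMV-SIRP mean was 9.18-fold higher and the call was lost (3.63, adjusted p = 0.093). Over the PBS libraries left out, the Gzma change ran from 4.42 to 6.59 with OMV-SIRP-G and from 3.12 to 5.29 with OMV-SIRP, lowest without PBS replicate 3 and highest without PBS replicate 1. Without OMV-SIRP replicate 3 it was 5.38 with OMV-SIRP. Gzmb had 212, 229.6 and 205 FPKM with OMV-SIRP-G, 102, 266 and 65.3 FPKM with OMV-SIRP, and 32.9, 30.5 and 29.9 FPKM with PBS. Its PBS libraries were the most even of any member, and its mean was 6.93-fold higher with OMV-SIRP-G (2.75 ± 0.41, adjusted p = 0.00265) and 4.64-fold higher with OMV-SIRP (1.93 ± 0.41, adjusted p = 0.0193).

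Gzmc in MC38 had 200.3, 216 and 202 FPKM with OMV-SIRP-G, 158, 159 and 165 FPKM with OMV-SIRP, and 3.38, 36.0 and 58.1 FPKM with PBS. Here the treated groups were tight and did not overlap, and the PBS libraries were spread. The rise passed with OMV-SIRP-G (3.29 ± 0.77, adjusted p = 0.0177) and with OMV-SIRP (2.93 ± 0.77, adjusted p = 0.0414). Without PBS replicate 1, the library at 3.38 FPKM, the Gzmc changes were 2.15 and 1.79, and without PBS replicate 3 they were 4.02 and 3.67. Gzmk had 11.3, 11.2 and 8.30 FPKM with OMV-SIRP-G, 2.29, 10.9 and 3.62 FPKM with OMV-SIRP, and 2.10, 2.72 and 6.79 FPKM with PBS. All OMV-SIRP-G libraries were above PBS, but the difference missed the threshold (1.32 ± 0.50, adjusted p = 0.0937), and the OMV-SIRP group overlapped PBS (0.34 ± 0.50, adjusted p = 0.697). Leaving out OMV-SIRP replicate 2, or PBS replicate 3, brought Gzmk past the threshold with OMV-SIRP-G (1.32, adjusted p = 0.0282 without the first; 1.72, adjusted p = 0.043 without the second).

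**Figure D2:**
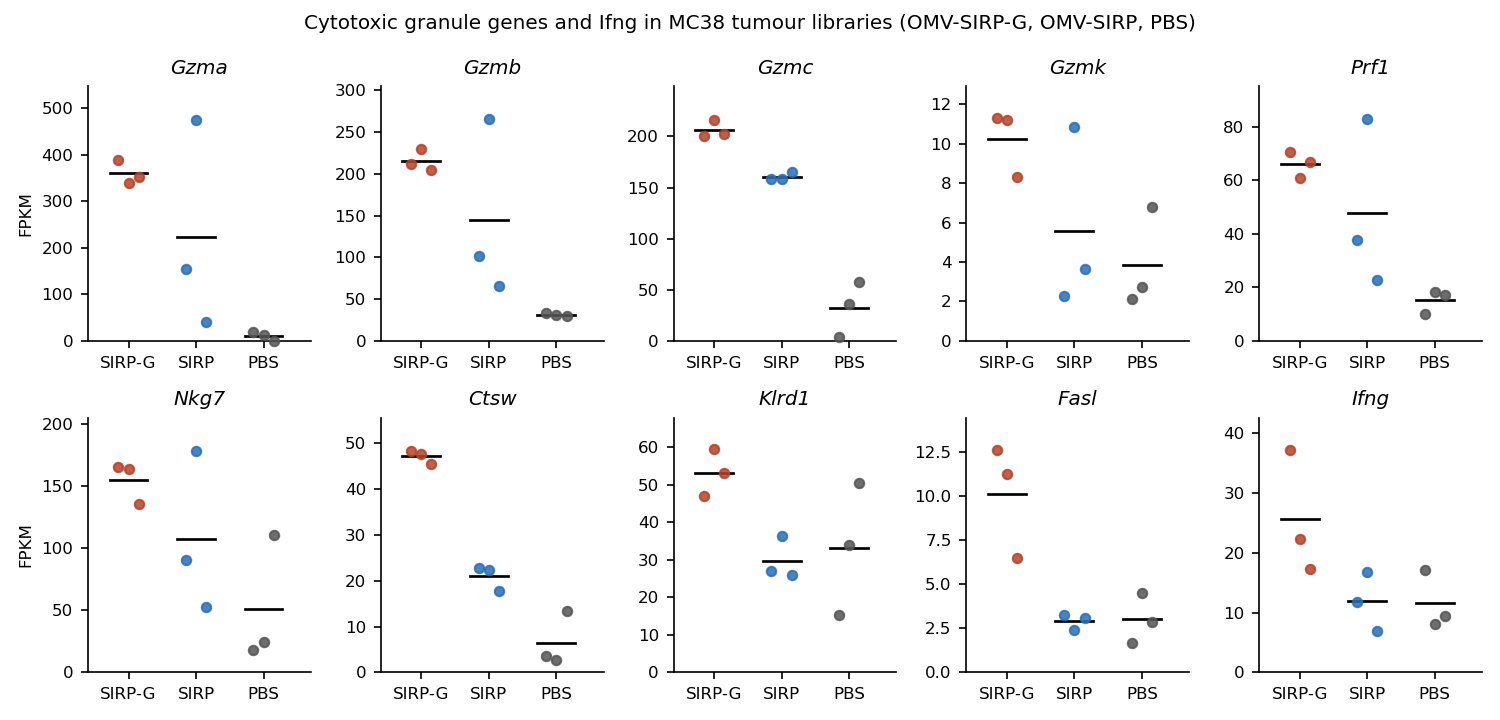
FPKM of each of the 10 genes in every MC38 library (points, y axis), with treatments OMV-SIRP-G, OMV-SIRP and PBS from left to right on the x axis and bars at the group mean. The 3 OMV-SIRP-G points lie above all PBS points for 9 genes, and OMV-SIRP replicate 2 is far above the other OMV-SIRP libraries for Gzma, at 475 FPKM.

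Prf1 in MC38 had 70.8, 61.0 and 66.7 FPKM with OMV-SIRP-G, 37.9, 83.0 and 22.6 FPKM with OMV-SIRP, and 10.2, 18.2 and 17.1 FPKM with PBS. It rose 4.36-fold in mean with OMV-SIRP-G (2.09 ± 0.41, adjusted p = 0.00839), and the difference with OMV-SIRP fell just short (1.44 ± 0.41, adjusted p = 0.0542) although all its libraries were above PBS. Without OMV-SIRP replicate 3 that difference passed for Prf1 (1.86, adjusted p = 0.0114). Nkg7 had 166, 164 and 136 FPKM with OMV-SIRP-G, 90.7, 179 and 52.6 FPKM with OMV-SIRP, and 17.9, 24.7 and 110.5 FPKM with PBS. PBS replicate 3 reached into the OMV-SIRP range, and the call with OMV-SIRP-G was marginal (2.04 ± 0.63, adjusted p = 0.0497), holding in 5 of 16 alternatives with adjusted p up to 0.145. Without PBS replicate 3, Nkg7 passed under both treatments (2.82, adjusted p = 0.00469 with OMV-SIRP-G; 2.12, adjusted p = 0.0229 with OMV-SIRP). Ctsw had 48.3, 47.7 and 45.4 FPKM with OMV-SIRP-G, 22.8, 22.3 and 17.8 FPKM with OMV-SIRP, and 3.54, 2.6 and 13.3 FPKM with PBS. The 3 groups were separate, and Ctsw rose with OMV-SIRP-G (2.96 ± 0.43, adjusted p = 0.00257) and with OMV-SIRP (1.83 ± 0.43, adjusted p = 0.0299). Without PBS replicate 3 the Ctsw changes were 3.57 and 2.43.

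Fasl in MC38 had 12.6, 11.2 and 6.50 FPKM with OMV-SIRP-G, 3.25, 2.41 and 3.06 FPKM with OMV-SIRP, and 1.64, 4.51 and 2.85 FPKM with PBS. It rose with OMV-SIRP-G (1.49 ± 0.34, adjusted p = 0.0154), and with OMV-SIRP the 95% interval of its log2 change was -0.74 to 0.78. Ifng had 37.2, 22.3 and 17.2 FPKM with OMV-SIRP-G, 11.7, 16.9 and 6.99 FPKM with OMV-SIRP, and 17.1, 8.13 and 9.37 FPKM with PBS. Its OMV-SIRP-G libraries were the highest 3 of 9 by a narrow margin over PBS replicate 1, and the difference did not pass the test (1.08 ± 0.39, adjusted p = 0.083). With OMV-SIRP its log2 change against PBS was 0.03, with an interval of -0.85 to 0.91. Klrd1 had 47.0, 59.5 and 53.1 FPKM with OMV-SIRP-G, 27.0, 36.2 and 26.0 FPKM with OMV-SIRP, and 15.3, 33.9 and 50.4 FPKM with PBS, where the groups overlapped and no difference from PBS passed. Without PBS replicate 3 the OMV-SIRP-G difference of Klrd1 passed (1.18, adjusted p = 0.0344).

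The MC38 calls depended on single libraries. With OMV-SIRP-G, Gzmb, Prf1 and Ctsw were called in 16 of 16 alternatives, Gzma in 15, and Gzmc and Fasl in 13. Gzmc was lost without each of the OMV-SIRP-G libraries in turn (adjusted p = 0.0566 to 0.0594) and Fasl without OMV-SIRP-G replicate 1 (0.0751) or 2 (0.0688). The number of members called ranged from 4, without OMV-SIRP-G replicate 1 or 2, to 9, without PBS replicate 3, and was 5 without OMV-SIRP-G replicate 3. With OMV-SIRP, Gzmb was called in 13 of 16 alternatives, Gzma and Ctsw in 6 each and Gzmc in 5. Gzmb was lost without PBS replicate 1 (adjusted p = 0.053) or PBS replicate 2 (0.0528). The number of members called there was 0 without PBS replicate 2, 1 without any of OMV-SIRP replicate 1 or 2 or the 3 OMV-SIRP-G libraries, 2 without PBS replicate 1, 4 without OMV-SIRP replicate 3 and 5 without PBS replicate 3. In B16 the number of members called stayed at 7 with OMV-SIRP-G and at 4 or 5 with OMV-SIRP under each library left out.

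**Figure D3:**
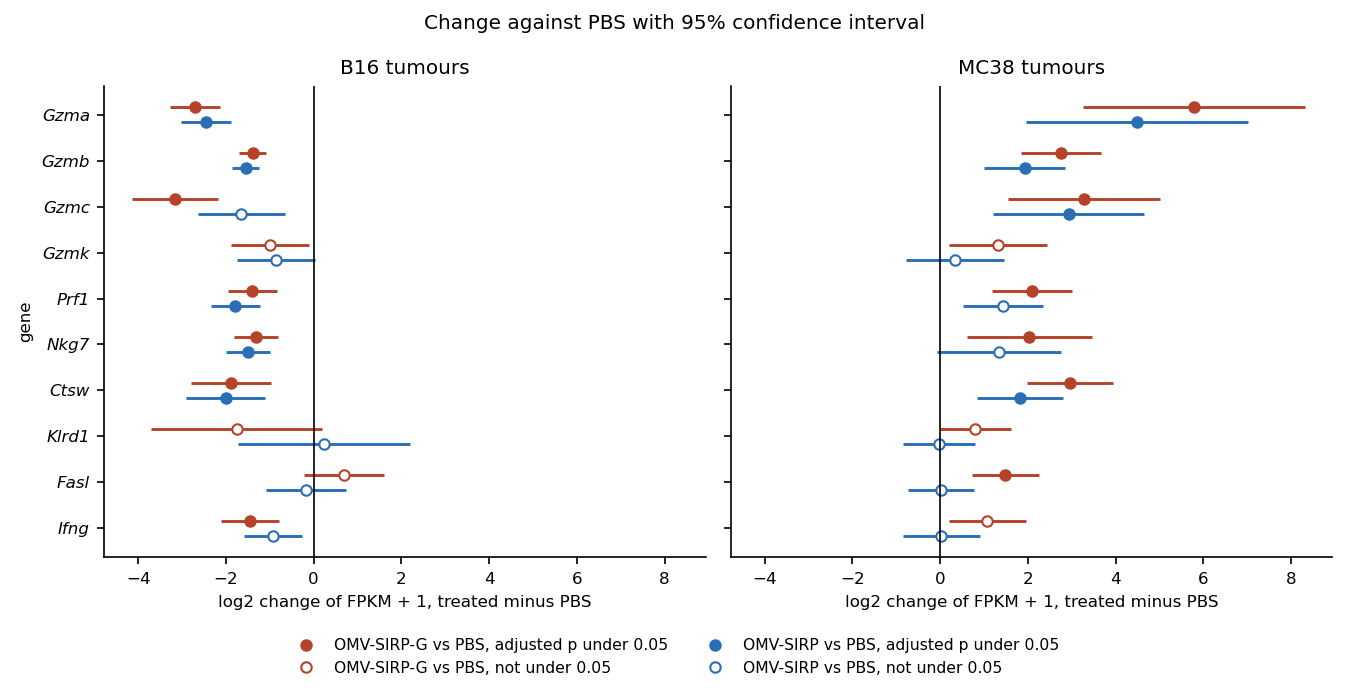
Log2 change against PBS on the log2(FPKM + 1) scale (x axis) of each of the 10 genes (y axis), for OMV-SIRP-G and OMV-SIRP, in B16 and in MC38. Points are estimates, lines their 95% intervals, and filled points have an adjusted p under 0.05; every filled B16 point is below 0 and every filled MC38 point above 0.

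Side by side, Gzma, Gzmb and Ctsw fell in B16 and rose in MC38 under both treatments, each relative to the PBS group of its own tumour. With OMV-SIRP the Ctsw call held in 3 of 15 alternatives in B16, and Gzma and Ctsw in 6 of 16 each in MC38. The MC38 PBS libraries also carried little of the macrophage signature. Prf1, Nkg7 and Gzmc also passed in both tumours with OMV-SIRP-G, lower in B16 and higher in MC38. The difference between the tumours was not tested, because the tables were scaled separately. In bulk RNA, fewer cells of a type and less RNA per cell cannot be told apart. Comparisons with PBS in 1 tumour share their PBS libraries, so the treatments are not independent of each other.

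OMV-SIRP-G set against OMV-SIRP gave no call among the 10 genes in either tumour. In B16, limma and limma voom called 0 of 10, while limma called 6.35% of all genes higher and 5.62% lower at an adjusted p under 0.05. An unadjusted p under 0.05 gave 2 of 10, a count for which no share of all genes is given. In MC38, limma and limma voom called 0 of 10, with 0.149% of all genes called higher and 0.234% lower by limma at an adjusted p under 0.05. An unadjusted p under 0.05 gave 4 of 10, again without a share of all genes to set beside it. Gzmc and Klrd1 of B16 were lower in every OMV-SIRP-G library than in any OMV-SIRP library (-1.51 ± 0.44, adjusted p = 0.0543 for Gzmc; -1.99 ± 0.85, adjusted p = 0.187 for Klrd1), and Fasl was higher in every one (0.87 ± 0.41, adjusted p = 0.218). These were 2 of 10 members lower and 1 of 10 higher. Among all 12542 genes tested there, 1744 were lower and 1749 higher without overlap of the groups. Without OMV-SIRP-G replicate 1 (-1.91, adjusted p = 0.0251), or without replicate 3 (-0.88, adjusted p = 0.0225), Gzmc passed. Gzmb differed by 0.16 in B16 with an interval of -0.15 to 0.47, and Gzma by -0.25 with an interval of -0.83 to 0.33.

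In MC38 all 10 log2 changes of OMV-SIRP-G over OMV-SIRP were positive, with a median of 0.90 beside 0.05 over all genes. The groups did not overlap for 5 of 10 (Gzmc, Klrd1, Ctsw, Ifng and Fasl), always with OMV-SIRP-G higher, against 12.4% of all genes. Fasl had the largest of these differences (1.47, interval 0.71 to 2.23, adjusted p = 0.131), followed by Ctsw (1.14, interval 0.16 to 2.12, adjusted p = 0.35) and Ifng (1.05, interval 0.17 to 1.93, adjusted p = 0.338). For Gzma the interval ran from -1.23 to 3.83, which holds no difference as well as a large one. Without OMV-SIRP replicate 2 Gzmb passed (1.39, adjusted p = 0.0247), and without PBS replicate 3 Ctsw did (1.14, adjusted p = 0.0318). Leaving out both libraries together, a choice made after seeing the data, gave 4 calls, for Gzmb, Nkg7, Ctsw and Gzmk. Total-read scaling moved the median of all genes in this comparison to 0.21 and turned the 21 higher and 33 lower calls into 28 and 20, and the members' median into 1.08.

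Within a tumour the members moved together across the 9 libraries to different degrees, which is a description over libraries that share treatments. Pearson's r of log2(FPKM + 1) with the mean of the other members was 0.96 for Gzma, 0.92 for Gzmb and 0.89 for Gzmc in B16, but 0.36 for Klrd1 and -0.41 for Fasl. In MC38 it was 0.97 for Prf1 and 0.96 for Gzmb, and lowest for Ifng at 0.61. Outside the members, the protein-coding genes most like the members' mean in B16 were Ccr8 (r = 0.970), Ccni (0.965), Bpgm (0.962), Sept1 (0.960) and Cd6 (0.952), out of 10346 candidates over 9 libraries. Ccr8, a chemokine receptor known from regulatory T cells, averaged 2.94 FPKM with OMV-SIRP-G, 4.56 with OMV-SIRP and 14.4 with PBS, and Cd6, a T cell surface receptor, 3.62, 4.0 and 10.2 FPKM in the same order. In MC38 the nearest of 11059 candidates were Edem1 (r = 0.995), Rasgef1b (0.991), Ripor2 (0.991), Selplg (0.991) and Card9 (0.987). Selplg, which encodes the P-selectin ligand of leukocytes, averaged 99.4 FPKM with OMV-SIRP-G, 57.6 with OMV-SIRP and 27.1 with PBS.

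Markers of T cells and NK cells were summed in each library. In B16 the sum of 13 T cell markers was 90.7 to 106 FPKM with OMV-SIRP-G, 85.2 to 100 FPKM with OMV-SIRP and 208 to 272 FPKM with PBS, with none of the 13 at 0. Of 12 tested, 10 were lower with OMV-SIRP-G and 8 with OMV-SIRP. Cd8a, the co-receptor of cytotoxic T cells, averaged 11.1 ± 1.86 FPKM with OMV-SIRP-G, 8.61 ± 2.41 FPKM with OMV-SIRP and 18.8 ± 2.50 FPKM with PBS (SD, n = 3 each). The sum of 8 NK cell markers was 1.87 to 7.93 FPKM with OMV-SIRP-G, 2.85 to 4.82 FPKM with OMV-SIRP and 22.2 to 25.2 FPKM with PBS, and 5 of 8 were lower with OMV-SIRP-G and 2 of 8 with OMV-SIRP. With limma voom the same numbers were 5 and 0, since Ncr1 (adjusted p = 0.128) and Klra8 (0.0812) missed the threshold with OMV-SIRP. The defining NK receptor gene Ncr1 was at 0 in all 3 OMV-SIRP-G libraries, as was Klra7. Ncr1 passed the filter through its PBS libraries alone, at 2.04 to 5.47 FPKM against at most 0.419 FPKM with OMV-SIRP. A marker admitted in that way could hardly come out other than lower. The counts of lower NK cell markers are therefore not independent of the filter. The part of these cells in the fall of the granule genes was not tested.

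Other cell types in B16 moved as well. The 8 macrophage markers summed to 7119 to 7441 FPKM with OMV-SIRP-G, 3385 to 4643 FPKM with OMV-SIRP and 3684 to 4091 FPKM with PBS, and the 5 melanocytic markers to 773 to 879, 2288 to 2531 and 2800 to 3053 FPKM in the same order. All 8 macrophage markers were higher and all 5 melanocytic markers lower with OMV-SIRP-G, and none of either list passed with OMV-SIRP in limma. There an unadjusted p under 0.05 gave 1 higher and 1 lower macrophage marker and 2 lower melanocytic markers, and limma voom called 0 macrophage markers and 1 melanocytic marker, which was lower. Missing the threshold with OMV-SIRP does not show that these markers were unchanged there. Their part in the fall of the granule genes was not tested. The share of mitochondrial reads was 13 to 14.2% with OMV-SIRP-G, 18.5 to 21.3% with OMV-SIRP and 15.2 to 19.7% with PBS.

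In MC38 the 13 T cell markers summed to 268 to 293 FPKM with OMV-SIRP-G, 159 to 239 FPKM with OMV-SIRP and 114 to 227 FPKM with PBS. Of these, 5 of 13 were higher with OMV-SIRP-G and 0 of 13 with OMV-SIRP in limma, where limma voom also called 0 and an unadjusted p under 0.05 gave 2 higher. The 8 NK cell markers summed to 115 to 122 FPKM with OMV-SIRP-G, 47.8 to 154 FPKM with OMV-SIRP and 28.7 to 45.2 FPKM with PBS, where Klra8 was at 0 in all 3. Ncr1 averaged 13.3 FPKM with OMV-SIRP-G, 6.68 with OMV-SIRP and 0.70 with PBS. NK cell markers were called higher for 5 of 8 with OMV-SIRP-G and 3 of 8 with OMV-SIRP, and all 8 macrophage markers were called higher under both treatments. Klrb1c was at most 0.553 FPKM with PBS, against 16.4 to 17.7 FPKM with OMV-SIRP-G and 2.58 to 19.9 FPKM with OMV-SIRP. It passed the filter through treated libraries alone, as did Klra8 and the macrophage marker Mertk, both at 0 with PBS. Markers admitted in that way could hardly come out other than higher. These counts of higher markers are therefore not independent of the filter. The mitochondrial share was 6.06 to 6.46% with OMV-SIRP-G, 15.2 to 21.5% with OMV-SIRP and 2.98 to 5.07% with PBS. The part of these shifts in the rise of the granule genes was not tested.

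**Figure D4:**
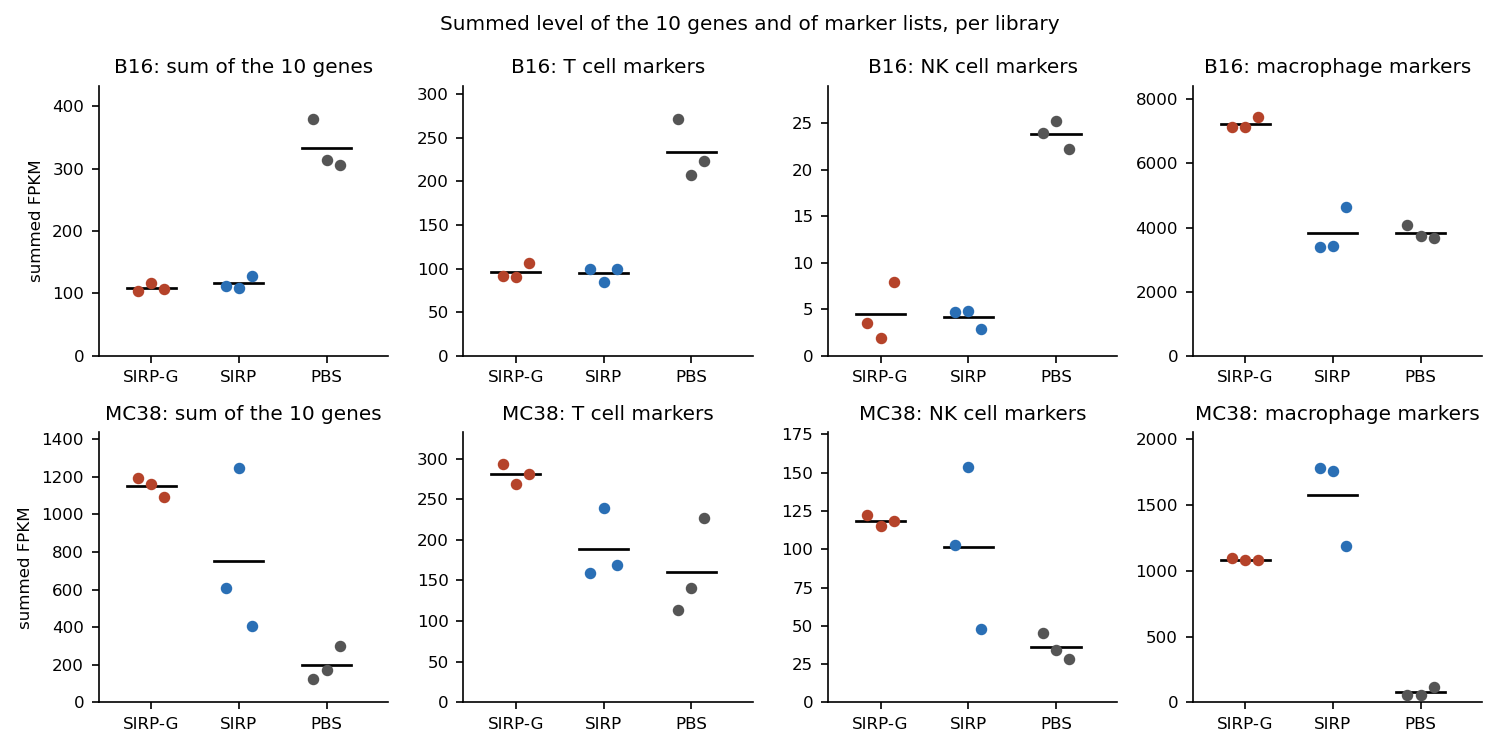
Summed FPKM (y axis, starting at 0; bars at the group mean) of the 10 genes and of the T cell, NK cell and macrophage markers in each B16 and MC38 library, with OMV-SIRP-G, OMV-SIRP and PBS from left to right. In B16 the sums of the 10 genes, T cell and NK cell markers are highest with PBS (10 genes 306 to 379 FPKM), and in MC38 the macrophage markers are lowest with PBS (53.6 to 117 FPKM).

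Partners of the granule proteins, 18 genes that load, store or release granule content, were taken as a group. For this and the following lists, the shares of all genes called are those given above for each tumour. Those shares hold for an adjusted p under 0.05, and none is given for an unadjusted p. In B16, 15 were tested, of which 2 rose and 7 fell with OMV-SIRP-G. With OMV-SIRP limma and limma voom called 0, and 0 were higher and 5 lower at an unadjusted p under 0.05. The group's median log2 change was -0.54 with OMV-SIRP-G and -0.27 with OMV-SIRP. Ctsc, which activates granzyme precursors and is also made by macrophages, rose with OMV-SIRP-G (139 ± 6.77 FPKM, against 53.5 ± 3.82 FPKM with PBS; log2 change 1.36 ± 0.10, adjusted p = 3.25e-05). Cst7, which encodes cystatin F, an inhibitor of granule cathepsins, fell (-1.38 ± 0.17, adjusted p = 0.000485), and so did Rab27a, a GTPase of granule docking (-1.32 ± 0.18, adjusted p = 0.000812). The 5 melanocytic markers were lower in the same comparison, at 773 to 879 FPKM against 2800 to 3053 FPKM with PBS. Their part in the Rab27a fall was not tested. In MC38, 10 of 17 rose and 0 fell with OMV-SIRP-G, and 3 rose and 0 fell with OMV-SIRP. Ctsc rose under both (3.11 ± 0.37, adjusted p = 0.00115 with OMV-SIRP-G; 3.23 ± 0.37, adjusted p = 0.00149 with OMV-SIRP), and Srgn, the proteoglycan serglycin, too (1.59 ± 0.33, adjusted p = 0.0108; 1.25 ± 0.33, adjusted p = 0.0402).

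Of 12 receptors and adaptors of cytotoxic lymphocytes, 10 were tested in B16, where 3 rose and 1 fell with OMV-SIRP-G. The genes that rose were Fcgr3 (1.17 ± 0.11, adjusted p = 8.38e-05), Slamf7 (1.17 ± 0.19, adjusted p = 0.00214) and Tyrobp (0.87 ± 0.16, adjusted p = 0.00511), all known in macrophages too. Cd7, a lymphocyte gene, fell (-1.07 ± 0.31, adjusted p = 0.0442), a call that limma voom did not make (adjusted p = 0.0655). With OMV-SIRP limma and limma voom called 0, and an unadjusted p under 0.05 gave 0 higher and 4 lower. In MC38, 8 of 12 rose and 0 fell with OMV-SIRP-G and 4 rose and 0 fell with OMV-SIRP, led by Fcgr3 and Tyrobp. Of 8 death receptor genes, to which Fas, the receptor of Fasl, belongs, 7 were tested in B16. There 3 rose and 0 fell with OMV-SIRP-G: Cflar (0.94 ± 0.21, adjusted p = 0.0142), Fas (0.65 ± 0.19, adjusted p = 0.043) and Casp8 (0.49 ± 0.15, adjusted p = 0.0443). With limma voom 1 was called, and Fas (adjusted p = 0.231) and Casp8 (0.0545) missed the threshold. With OMV-SIRP limma and limma voom called 0 of 7, and an unadjusted p under 0.05 gave 0. In MC38 limma called 0 of 8 under both treatments, with 2 higher and 2 lower at an unadjusted p under 0.05 with OMV-SIRP-G and 0 higher and 1 lower with OMV-SIRP; limma voom called 1 higher with OMV-SIRP-G and 0 with OMV-SIRP.

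Inducers and regulators of Ifng were 16 genes. In B16, 15 were tested and 0 rose and 2 fell with OMV-SIRP-G, against 0 and 1 with OMV-SIRP; limma voom called 4 lower with OMV-SIRP-G, the others being Tbx21 (adjusted p = 0.046) and Il18rap (0.0432). Il2rb, the receptor chain shared by interleukins of lymphocytes, averaged 17.9 ± 3.19 FPKM with OMV-SIRP-G, 16.8 ± 1.96 FPKM with OMV-SIRP and 51.9 ± 1.64 FPKM with PBS. Its fall passed under both treatments (-1.49 ± 0.15, adjusted p = 0.00012; -1.58 ± 0.15, adjusted p = 0.000516), and Stat4, which relays interleukin 12, fell with OMV-SIRP-G (-1.15 ± 0.20, adjusted p = 0.0038). In MC38, 9 of 16 rose and 0 fell with OMV-SIRP-G, and 2 rose and 0 fell with OMV-SIRP. Il12b, the shared subunit of interleukins 12 and 23 made by myeloid cells, averaged 29.0 ± 6.71 FPKM with OMV-SIRP-G, 8.24 ± 5.26 FPKM with OMV-SIRP and 0.724 ± 1.25 FPKM with PBS. It rose under both treatments (4.33 ± 0.53, adjusted p = 0.00132; 2.49 ± 0.53, adjusted p = 0.0197), as did Runx3 (1.69 ± 0.24, adjusted p = 0.00231; 1.22 ± 0.24, adjusted p = 0.0155). Tbx21, the T-box factor of Ifng transcription, rose with OMV-SIRP-G (2.98 ± 0.62, adjusted p = 0.0111).

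Signalling and target genes downstream of interferon gamma numbered 17. In B16, where Ifng was lower, 16 were tested and 2 rose and 0 fell with OMV-SIRP-G, namely Cd274, which encodes PD-L1 (0.64 ± 0.15, adjusted p = 0.0159), and Ifngr2, a receptor chain (0.68 ± 0.14, adjusted p = 0.00884). Limma voom called 3 higher and 1 lower there, with Cxcl10 higher (adjusted p = 0.0405) and Jak2 lower (0.0311) in addition. With OMV-SIRP 1 rose and 0 fell, Ciita, the activator of MHC class II genes (1.33 ± 0.21, adjusted p = 0.0117). The median log2 change was 0.11 with OMV-SIRP-G and -0.05 with OMV-SIRP. In MC38, 10 of 17 rose and 0 fell with OMV-SIRP-G and 2 rose and 0 fell with OMV-SIRP, beside 13.1% and 7.4% of all genes called higher. Ifng itself did not pass there (limma, adjusted p = 0.083 and 0.975). All 8 macrophage markers were also called higher under both treatments, and their part in these rises was not tested. Irf1, a transcription factor induced by interferon, rose with OMV-SIRP-G (1.96 ± 0.20, adjusted p = 0.000597), Ciita rose under both (2.74 ± 0.30, adjusted p = 0.000818; 2.17 ± 0.30, adjusted p = 0.00375), and so did the chemokine gene Cxcl9 (2.86 ± 0.54, adjusted p = 0.00741; 3.48 ± 0.54, adjusted p = 0.00591).

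Of 4 chemokines that cytotoxic lymphocytes make, 1 rose and 2 fell in B16 with OMV-SIRP-G. Ccl5 averaged 130.3 ± 9.81 FPKM with OMV-SIRP-G, 159 ± 4.23 FPKM with OMV-SIRP and 219 ± 13.4 FPKM with PBS (adjusted p = 0.000683 with OMV-SIRP-G and 0.0521 with OMV-SIRP). Xcl1, lymphotactin, had no read in any OMV-SIRP-G library, against 7.25 ± 0.843 FPKM with PBS (adjusted p = 0.00457), and Ccl4 rose (0.56 ± 0.15, adjusted p = 0.0257). With OMV-SIRP limma and limma voom called 0 of 4, and an unadjusted p under 0.05 gave 0 higher and 2 lower. In MC38, Ccl5 (1.83 ± 0.38, adjusted p = 0.011) and Xcl1 (2.56 ± 0.77, adjusted p = 0.0447) rose with OMV-SIRP-G, Xcl1 not with limma voom (adjusted p = 0.0614), and limma called 0 of 4 with OMV-SIRP, where an unadjusted p under 0.05 gave 1 higher and 1 lower and limma voom called 1 lower.

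In bone marrow monocytes the machinery was close to absent except for Nkg7. The summed level of the 10 genes was 2.43 to 3.46 FPKM with OMV-SIRP-G, 2.82 to 3.82 FPKM with OMV-SIRP and 12.1 to 22.0 FPKM with PBS, and only Nkg7 passed the filter. Nkg7 had 2.25, 1.51 and 1.28 FPKM with OMV-SIRP-G, 2.10, 2.64 and 3.03 FPKM with OMV-SIRP, and 9.64, 19.9 and 9.50 FPKM with PBS. All treated libraries were below all PBS libraries, and the mean was 7.75-fold lower with OMV-SIRP-G (log2 change -2.32 ± 0.27, adjusted p = 0.00277) and 5.02-fold lower with OMV-SIRP (-1.89 ± 0.27, adjusted p = 0.00591). Without PBS replicate 2, the library that stood apart, the changes were -2.0 (adjusted p = 0.000123) and -1.57 (adjusted p = 0.000302). Between the treatments the interval was -1.06 to 0.20 (adjusted p = 0.562). Of all 12028 genes tested in monocytes, 2.14% were called lower and 1.53% higher with OMV-SIRP-G, 5.46% lower and 3.07% higher with OMV-SIRP, and 1.59% higher and 0.848% lower between the treatments. Under total-read scaling the OMV-SIRP calls over all genes were 677 higher and 413 lower, against 369 and 657, with a median of all genes of 0.11, against -0.03; between the treatments they were 144 higher and 189 lower, against 191 and 102.

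The other members of the set were traces in monocytes, with at most 28 reads in any library. Gzma had 6, 1 and 1 reads with OMV-SIRP-G, 1, 4 and 2 reads with OMV-SIRP, and 17, 13 and 19 reads with PBS, which is 0.0595 to 0.361 FPKM in treated libraries and 0.986 to 1.13 FPKM in PBS libraries. Klrd1 lay between 0.230 and 1.31 FPKM, and Ifng had no read in 7 of 9 libraries and at most 2. The NK cell markers summed to 0.346 to 0.521 FPKM with OMV-SIRP-G, 0.204 to 0.414 FPKM with OMV-SIRP and 0.581 to 1.03 FPKM with PBS, with Ncr1 at 0 in all treated libraries. Several marker lists were highest with PBS, as Nkg7 was. The 8 markers of granulocyte-macrophage progenitors summed to 245 to 292 FPKM with OMV-SIRP-G, 443 to 499 FPKM with OMV-SIRP and 813 to 1846 FPKM with PBS. Of these 4 of 8 were lower with OMV-SIRP-G, and 3 lower and 1 higher with OMV-SIRP. The 6 B cell markers summed to 9.11 to 10.2 FPKM with OMV-SIRP-G, 14.7 to 16.7 FPKM with OMV-SIRP and 22.6 to 45.1 FPKM with PBS, and 2 of 3 tested were lower under each treatment. The 7 mast cell and basophil markers summed to 8.18 to 8.42, 5.32 to 6.17 and 10.9 to 23.2 FPKM in the same order, and of 2 tested 0 were lower with OMV-SIRP-G and 1 with OMV-SIRP. The part of these markers in the Nkg7 difference was not tested.

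**Figure D5:**
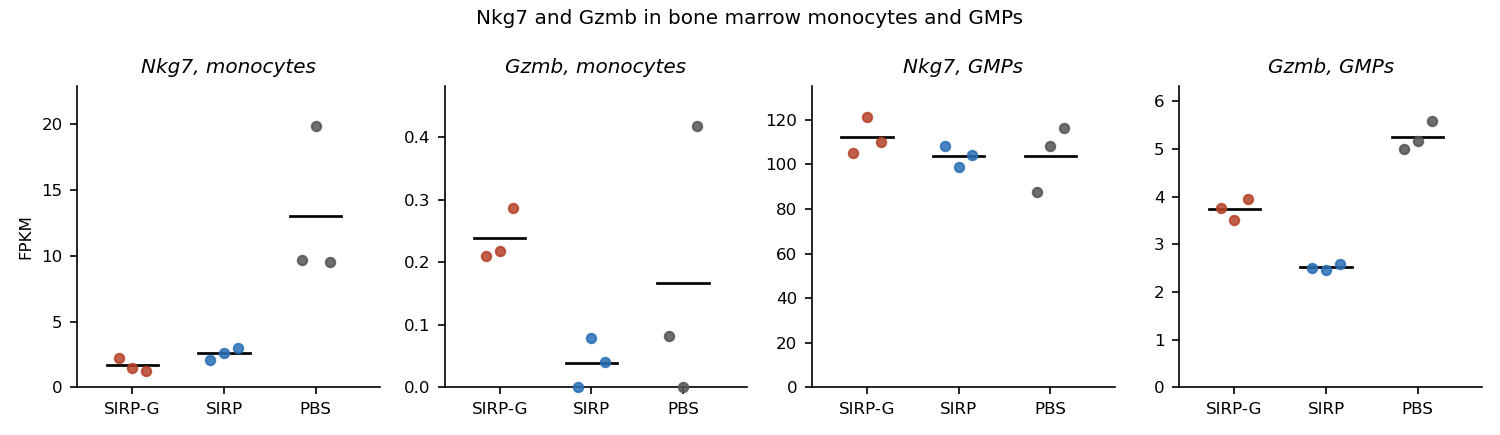
FPKM (y axis, starting at 0) of Nkg7 and Gzmb in each library of bone marrow monocytes and GMPs, with OMV-SIRP-G, OMV-SIRP and PBS from left to right and bars at the group mean. Nkg7 is at most 3.03 FPKM in all treated monocyte libraries, and Gzmb of GMPs is lowest with OMV-SIRP (2.45 to 2.59 FPKM).

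In GMPs Nkg7 was abundant, at 105, 121 and 109.9 FPKM with OMV-SIRP-G, 108, 98.6 and 104 FPKM with OMV-SIRP, and 87.6, 108 and 116 FPKM with PBS. The groups overlapped, and the log2 change with OMV-SIRP had an interval of -0.22 to 0.23 (adjusted p = 0.979). NK cell markers summed to at most 1.19 FPKM in these libraries and the 13 T cell markers to 2.62 to 3.98 FPKM, so Nkg7 stood far above the lymphocyte markers there. Gzmb was the only other member past the filter, at 3.76, 3.51 and 3.95 FPKM with OMV-SIRP-G, 2.51, 2.45 and 2.59 FPKM with OMV-SIRP, and 5.0, 5.16 and 5.59 FPKM with PBS. The 3 groups were separate with narrow spreads. Gzmb fell with OMV-SIRP-G (log2 change -0.40 ± 0.06, adjusted p = 0.00285) and with OMV-SIRP (-0.83 ± 0.06, adjusted p = 3.32e-05), and was higher with OMV-SIRP-G than with OMV-SIRP (0.43 ± 0.06, adjusted p = 0.00179).

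Among the members tested in the 4 populations, Gzmb of GMPs was the one that limma called between the 2 treatments. Of all 12287 genes tested in GMPs, 5.22% were called lower and 6.76% higher with OMV-SIRP-G, 7.52% lower and 10.6% higher with OMV-SIRP, and 6.7% higher and 8.12% lower between the treatments. Under total-read scaling the calls with OMV-SIRP were 820 higher and 1823 lower, against 1308 and 924, and between the treatments 1338 higher and 606 lower, against 823 and 998. Gzmb stayed called under it in all 3 comparisons. The 7 mast cell and basophil markers followed the same order as Gzmb, at 278 to 293 FPKM with OMV-SIRP-G, 209 to 225 FPKM with OMV-SIRP and 305 to 352 FPKM with PBS. The 7 neutrophil markers ran the other way, at 35550 to 36786 FPKM with OMV-SIRP-G, 57065 to 59331 FPKM with OMV-SIRP and 27268 to 38758 FPKM with PBS. All 7 were called higher with OMV-SIRP and 3 with OMV-SIRP-G, and between the treatments 6 were lower and 1 higher. The part of these markers in the Gzmb difference was not tested.

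Klrd1 of GMPs was low and separated by treatment, with 1, 3 and 4 reads with OMV-SIRP-G, 3, 2 and 2 reads with OMV-SIRP, and 33, 19 and 27 reads with PBS. It did not pass the filter, and without the filter it was called lower with OMV-SIRP-G (-0.93, adjusted p = 0.00249) and with OMV-SIRP (-0.95, adjusted p = 0.00174). The separation was not particular to Klrd1. Gzma had 0.233 to 0.688 FPKM with PBS and at most 0.211 FPKM in treated libraries. Gzmc had 0.655 to 1.01 FPKM with PBS and at most 0.327 FPKM in treated libraries. Prf1, at most 0.556 FPKM, overlapped PBS with OMV-SIRP, and Ctsw, at most 0.284 FPKM, with both treatments. The NK cell markers moved alongside, at 0 to 0.101 FPKM with OMV-SIRP-G, 0.0329 to 0.299 FPKM with OMV-SIRP and 0.952 to 1.19 FPKM with PBS, and so did the B cell markers, at 12.1 to 13.1, 12.5 to 13.9 and 19.4 to 24.2 FPKM in the same order; their part in the Klrd1 difference was not tested. Gzmk and Fasl had no read in any of the 6 treated libraries, and Ifng had none in all 9, where 3 reads would amount to 0.113 to 0.146 FPKM. A limit of this kind covers counting error only.

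In monocytes, 14 interferon gamma signalling and target genes were tested, of which 0 rose and 5 fell with OMV-SIRP-G, and 1 rose and 6 fell with OMV-SIRP. Cxcl10, an interferon-induced chemokine gene, averaged 3.82 ± 0.463 FPKM with OMV-SIRP-G, 5.65 ± 0.697 FPKM with OMV-SIRP and 19.1 ± 5.61 FPKM with PBS (adjusted p = 0.000903 and 0.00317). Irgm1, an interferon-induced GTPase gene, fell too (-1.09 ± 0.09, adjusted p = 0.000528; -0.83 ± 0.09, adjusted p = 0.00196). Ifng itself had at most 2 reads in any of these libraries. Ccl5 rose in monocytes with OMV-SIRP-G, to 325 ± 14.1 FPKM, against 21.2 ± 3.16 FPKM with OMV-SIRP and 11.8 ± 5.93 FPKM with PBS (4.77 ± 0.28 over PBS, adjusted p = 0.000106). In GMPs Ccl5 rose under both treatments (1.52 ± 0.10, adjusted p = 1.99e-05 with OMV-SIRP-G; 0.88 ± 0.10, adjusted p = 0.00045 with OMV-SIRP). Of the 4 chemokines, 3 were tested in GMPs, where 2 rose and 0 fell with OMV-SIRP-G, but 1 rose and 2 fell with OMV-SIRP. Of 11 granule partners, 2 rose and 2 fell with OMV-SIRP-G and 2 rose and 1 fell with OMV-SIRP. The shares of all genes called in GMPs are those given above.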

How the data were processed

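RNA was extracted with TRIzol and libraries were made with a NEBNext mRNA kit, per the labels' protocols. Per the submitters' processing notes, HISAT2 2.0.5, StringTie and featureCounts 1.5.0-p3 were used with build GRCm38, with roles and settings not given in the sources used here. The authors deposited FPKM per gene in 3 tables, 1 for B16, 1 for MC38 and 1 for monocytes and GMPs together, with the gene length as an other column. Multiplied by length, 100% of the deposited FPKM values came out as whole reads (tolerance 0.05 reads), at 13036567 to 19822660 reads per library. The steps between libraries matched a median-of-ratios scaling within each table.

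Groups came from the sample titles. In each population, limma 3.58.1 (R 4.3.3, statmod 1.5.0) was fitted to log2(FPKM + 1) of its 9 libraries with the moderated, robust and trended variance, over genes of at least 1 FPKM in at least 3 libraries, and p-values were adjusted over all of them (Benjamini-Hochberg, threshold 0.05). The script was tested on simulated data. Alternatives were a pseudocount of 0.1, no filter, total-read scaling, limma voom on the recovered reads, the 2 compared groups alone, a replicate block and each library left out; leaving out 2 MC38 libraries together was added after seeing the data. With OMV-SIRP-G against PBS, limma voom called 2143 of 12542 genes in B16, 3060 of 14089 in MC38, 422 of 12028 in monocytes and 1864 of 12287 in GMPs. The members, marker lists and pathway lists were chosen with earlier results of these data known. From each pathway list the genes named are among the 4 with the lowest adjusted p in any comparison of that population, and outside the lists the 5 protein-coding genes most correlated with the members' mean are named. Sept1 stands as a date in the deposited table and was named by its identifier.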

Additional observations from a re-analysis of the deposited data

Results flagged for a closer look

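For several members every library of 1 population lay on one side of its PBS group and every library of another population on the opposite side. These differences between populations were not tested, because the tables were scaled separately. All values are log2 changes on the log2(FPKM + 1) scale.

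With OMV-SIRP-G against PBS, the change of Gzma was -2.70 in B16 and 5.78 in MC38. Gzmb changed by -1.39 in B16, 2.75 in MC38 and -0.40 in GMPs. Nkg7 changed by -1.32 in B16, 2.04 in MC38 and -2.32 in monocytes. The other flagged members were Gzmc (-3.16 in B16, 3.29 in MC38), Prf1 (-1.40, 2.09), Ctsw (-1.88, 2.96), Gzmk (-1.0, 1.32) and Ifng (-1.45, 1.08), of which Gzmk missed the threshold in both tumours and Ifng in MC38.

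With OMV-SIRP against PBS, the change of Gzma was -2.46 in B16 and 4.48 in MC38. Gzmb changed by -1.55 in B16, 1.93 in MC38 and -0.83 in GMPs. Gzmc (-1.65 in B16, 2.93 in MC38), Prf1 (-1.79, 1.44) and Ctsw (-2.0, 1.83) did the same, although Gzmc of B16 and Prf1 of MC38 missed the threshold. With OMV-SIRP-G against OMV-SIRP, Klrd1 (-1.99 in B16, 0.83 in MC38) and Gzmc (-1.51, 0.36) lay on opposite sides, and none of these 4 values passed the test.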

How the results depend on the processing

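Across the single genes and settings, no call reversed its sign; the values that did were small and not called. In B16 the count of members called was 7 with OMV-SIRP-G, except 6 with limma voom, and 4 or 5 with OMV-SIRP. Between the treatments it was 1 with the replicate block and 0 to 1 with a library left out. In MC38 with OMV-SIRP it fell to 2 at a pseudocount of 0.1, 1 without the filter and 0 with the 2 groups alone, and ranged from 0 (without PBS replicate 2) to 5 (without PBS replicate 3) over libraries left out. With OMV-SIRP-G it ranged from 4 to 9, and between the treatments it was 1 with the 2 groups alone, 4 without OMV-SIRP replicate 2 and PBS replicate 3 together, and 0 to 1 with a single library left out. Without the filter, the members called numbered 2 with OMV-SIRP-G and 3 with OMV-SIRP in monocytes, and 4 with OMV-SIRP-G and 5 with OMV-SIRP in GMPs. The cause was not tested.

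Changes that turned sign were Klrd1 of MC38 with OMV-SIRP (0.0153 with limma voom, 0.20 without the 2 libraries, -0.48 to 0.35 with a library left out), Ifng there (-0.0483 with limma voom, -0.33 with total-read scaling, -0.35 without the 2 libraries, -0.25 to 0.33 with a library left out) and Fasl there (-0.26 with total-read scaling, -0.24 to 0.29 with a library left out). Nkg7 of GMPs with OMV-SIRP was -0.0942 under total-read scaling. With a library left out, further ranges were -0.20 to 0.74 for Gzmk of MC38 with OMV-SIRP, -0.53 to 0.10 for Fasl of B16 with OMV-SIRP, -0.00116 to 0.20 for Nkg7 of GMPs with OMV-SIRP-G and -0.11 to 0.0897 with OMV-SIRP. Between the treatments in B16 they were -0.0244 to 0.34 for Nkg7, -0.17 to 0.61 for Ctsw and -0.54 to 0.18 for Gzmk. Of 612 values with a library left out, 537 kept their direction and side of the threshold, 41 lost a call, 11 gained one and 23 turned sign.

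Calls over all genes varied more. They ranged with OMV-SIRP-G against PBS from 1177 (without PBS replicate 3) to 2143 in B16 (1895 reported), 1262 (without OMV-SIRP-G replicate 1) to 4701 in MC38 (2809), 158 (the 2 groups alone) to 1479 (without PBS replicate 2) in monocytes (442) and 892 (without OMV-SIRP-G replicate 2) to 1882 in GMPs (1471). With OMV-SIRP they ranged from 73 (without OMV-SIRP replicate 1) to 189 (182), 334 (the 2 groups alone) to 2328 (1534), 240 (the 2 groups alone) to 3563 (without PBS replicate 2; 1026) and 1390 (without OMV-SIRP replicate 2) to 2756 (2232), in the same order. Between the treatments they ranged from 925 to 1667 (1502), 0 to 644 (54), 59 to 2516 (293) and 1068 to 2716 (1821).

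The deviations of same-numbered libraries correlated at 0.000101 to 0.0779 in B16, -0.0343 to 0.0534 in MC38, -0.370 to 0.250 in monocytes and -0.0200 to 0.223 in GMPs, against -0.0657 to 0.0444, -0.0640 to 0.0499, -0.334 to 0.371 and -0.215 to 0.0466 for other pairs. Not every pair passed 0.1 in any population, so the numbers were not taken to pair the libraries. That rule can miss a weaker pairing. In GMPs the highest same-numbered pairs, at 0.180 and 0.223, lay above every other pair. Gzmb of GMPs kept its call in 15 of 15 alternatives in each comparison, the replicate block among them. With the replicate block, 7 members of B16 and 6 of MC38 were called with OMV-SIRP-G, 4 and 3 with OMV-SIRP, and 1 and 0 between the treatments; in monocytes the calls over all genes fell to 242, 520 and 75 in these comparisons.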
